A study of Mus musculus with 12 samples.

Results

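Gene expression in the thymus was compared between mice of 6 weeks (6W), an age near puberty, and mice of 2 weeks (2W), in infancy. The comparison uses 4 of the 12 samples of the series, the RNA libraries of 2W replicates 1 and 2 and 6W replicates 1 and 2, chosen by the age in their labels. Within them, 14805 of the 22843 gene symbols in the table of protein-coding transcripts were tested, after the counts of all transcripts with the same symbol had been summed. All mice were male, wild type C57BL/6 animals without treatment, the thymus was frozen in liquid nitrogen, and age is the only labelled difference. The study describes 2 biological replicates an age, and the sources used here do not state whether a replicate is 1 animal or several. Libraries were made from RNA depleted of ribosomal RNA, with strand marking, and the oldest mice of the study, at 3 months (3M), enter the estimate of the spread between replicates, the scaling and the filter on low counts.

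The thymus is the organ in which T cells are made. Progenitors from the bone marrow enter as double negative (DN) cells without CD4 or CD8, respond to Notch ligands on the cortical epithelium, divide, and become double positive (DP) cells that rearrange their T cell receptor genes. DP cells are tested on the major histocompatibility complex (MHC) molecules of the cortical epithelium and become single positive (SP) cells, which complete their selection on medullary epithelium and dendritic cells before they leave, while macrophages remove the many cells that die. The organ grows after birth until about puberty and is then slowly replaced by fat and connective tissue.

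The libraries held 16519753 to 22553481 estimated counts, and their gene levels are given as counts per 1000000 (CPM) of the scaled library size. The limit that a count of 0 allows, 3 counts, came to 0.132 to 0.190 CPM, and it covers counting error only, since the reads carried no molecular identifiers. Spearman's rho over the tested genes was 0.9891 between the 2W libraries, 0.9928 between the 6W libraries and 0.9776 to 0.9847 between libraries of different ages. The tissue label held: Rag1, the recombinase of the T cell receptor genes, was at 9404 and 11178 CPM at 2W and 8339.9 and 8087 CPM at 6W, and the epithelial thymus protease Prss16 at 627 and 637 CPM at 2W and 691 and 636 CPM at 6W. The Y-linked Ddx3y was at 78.1 and 76.5 CPM at 2W and 55.0 and 60.8 CPM at 6W. Genes of liver and brown fat differed between libraries of the same age, and the sum of those of red blood cells between the ages. The 12 tested liver genes summed to 376 and 362 CPM at 2W and 434 and 149 CPM at 6W, and Alb (serum albumin) alone was at 152 and 134 CPM at 2W and 123 and 0.839 CPM at 6W. The brown fat gene Ucp1, the uncoupling protein of heat production, was at 4.43 and 34.4 CPM at 2W and 15.3 and 27.9 CPM at 6W, and the 9 tested genes of red blood cells summed to 1064 and 927 CPM at 2W and 602 and 523 CPM at 6W. All 9 had a log2 fold change below 0. This last sum includes the transferrin receptor Tfrc, at 239 and 371 CPM at 2W and 115 and 117 CPM at 6W. The haemoglobin chain Hba-a2 overlapped between the ages, at 185 and 99.4 CPM at 2W and 125 and 98.2 CPM at 6W. Of the genes of liver, brown fat and red blood cells, none passed the adjusted threshold used here in edgeR's quasi-likelihood test (0, 1 and 2 had an unadjusted p under 0.05, and DESeq2 called 0, 0 and 1).

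From 2W to 6W, more genes rose than fell. At a Benjamini-Hochberg adjusted p under 0.05 in edgeR's quasi-likelihood test, 218 genes were up-regulated at 6W (1.47% of those tested) and 39 were down-regulated (0.263%), together 257 genes (1.74%). With DESeq2, the split was 631 up-regulated and 254 down-regulated. The threshold of the study asks for an unadjusted p under 0.05 and a change of more than 2-fold. There, 663 genes were up-regulated (4.48%) and 130 down-regulated (0.878%). Both 6W libraries lay above both 2W libraries in 4148 genes (28%) and below them in 4413 genes (29.8%), and the median log2 fold change over all genes was -0.01. All 257 genes called at the adjusted threshold had libraries that did not overlap, and 187 of them changed more than 2-fold. The number of adjusted calls rests on every library: it was 2 without 2W replicate 1, 0 without 2W replicate 2 or without 6W replicate 1, and 1 without 6W replicate 2, with 1 library left at that age and assumed to vary like the others. At an unadjusted p under 0.05 these fits held 2761, 1698, 1332 and 1379 genes, and no called gene changed direction in them. Below, "rose" and "fell" are used only for genes with an adjusted p under 0.05.

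**Figure D1:**
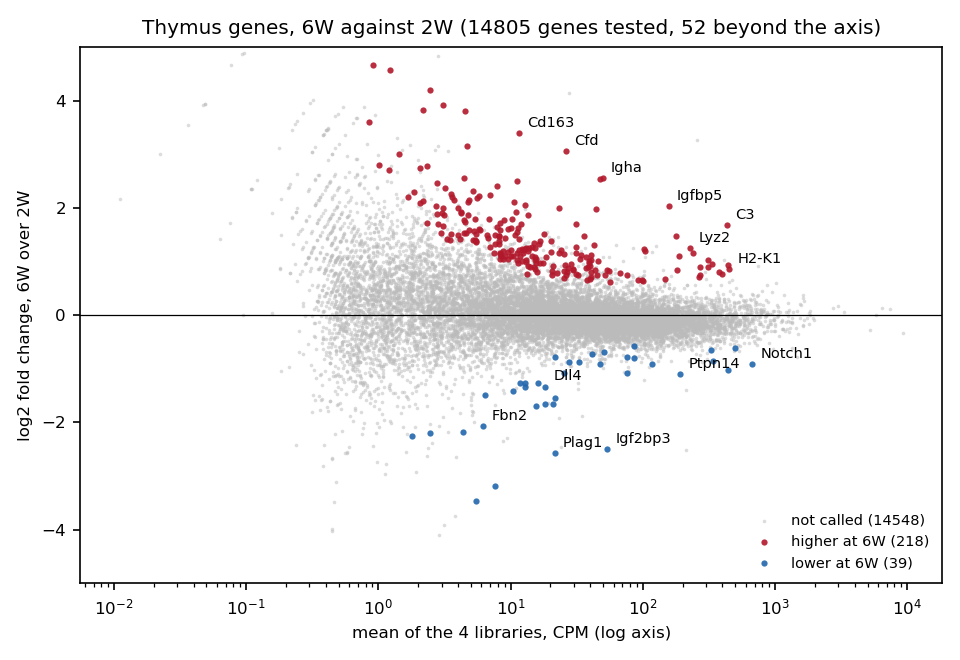
Each point is 1 of the 14805 tested genes, with the mean CPM of the 4 libraries on a log axis and the log2 fold change of 6W over 2W on the vertical axis, which leaves out 52 genes beyond 5 in either direction. Of the 218 genes that rose (red) and the 39 that fell (blue) at an adjusted p under 0.05, 5 are among those beyond the axis, and the red points outnumber the blue ones.

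The 12 up-regulated genes with the smallest p were taken from those that changed more than 2-fold, did not overlap between the ages and were also called with exact symbols. They were Cd163, Igfbp5, Als2cl, Igha, Gpx3, Bgn, Ctss, Apod, Pgr, Mpeg1, Ccl8 and Plau. Cd163, the scavenger receptor of tissue macrophages for haemoglobin, was at 2.15 and 1.84 CPM at 2W and 23.5 and 18.6 CPM at 6W, and rose by 3.40 ± 0.20 (adjusted p = 0.0077) on the log2 scale, where ± is the standard error of the fitted value, here and below. The ages were well separated (10.5-fold by the fit), and although 52.5% of the counts are in transcripts that the authors assembled from their own reads, the annotated ones alone gave a log2 fold change of 3.37. Igfbp5, a secreted protein that binds insulin-like growth factors, was at 58.7 and 63.6 CPM at 2W and 276 and 227 CPM at 6W (log2 fold change 2.04 ± 0.13, adjusted p = 0.0077). Igha, the heavy chain of IgA, was at 16.9 and 11.9 CPM at 2W and 85.2 and 84.4 CPM at 6W (log2 fold change 2.56 ± 0.17, adjusted p = 0.008), and Als2cl at 18.4 and 17.5 CPM at 2W and 69.1 and 73.0 CPM at 6W (log2 fold change 1.99 ± 0.13, adjusted p = 0.0077). Igfbp5, Als2cl and Igha were also called in each of the 7 alternatives that keep all 2W and 6W libraries, and Cd163 in 6 of them. Gpx3, a secreted glutathione peroxidase, rose 3.26-fold, and Apod, a lipid carrier of the lipocalin family, 4.52-fold. Plau, the urokinase that activates plasminogen, rose 2.27-fold, from 12.2 and 12.6 CPM to 28.0 and 28.5 CPM. Mpeg1, the pore-forming perforin-2 of phagocytes, was at 120.1 and 119 CPM at 2W and 270.5 and 245 CPM at 6W, with 75.5% of its counts in assembled transcripts and a log2 fold change of 1.11 (0.82 by annotated transcripts).

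By the same rule, the 12 down-regulated genes were Igf2bp3, Syt14, Plag1, Ptpn14, Dtx1, Phlda1, Dll4, Ankrd32, Akr1c13, Adcy1, Fbn2 and Tfpi. Igf2bp3, an RNA-binding protein of fetal cells, fell from 80.0 and 101 CPM to 15.5 and 16.8 CPM, a log2 fold change of -2.49 ± 0.15 (adjusted p = 0.0077). Syt14, a member of the synaptotagmin family of membrane trafficking proteins, was at 29.1 and 34.9 CPM at 2W and 9.84 and 10.4 CPM at 6W (log2 fold change -1.66 ± 0.15, adjusted p = 0.019). Phlda1, a gene induced by T cell receptor signals, was at 31.6 and 33.0 CPM at 2W and 10.5 and 11.7 CPM at 6W (log2 fold change -1.54, adjusted p = 0.023). Ptpn14, a tyrosine phosphatase that restrains the growth regulator YAP, was the most abundant of the 12 in CPM, at 253 and 266 CPM at 2W and 125 and 118 CPM at 6W (log2 fold change -1.09, adjusted p = 0.023), with 56.6% of its counts in assembled transcripts. In each of these genes the 6W libraries lay below both 2W libraries, as the rule required, with a gap wider than the distance within either age. The levels of Ankrd32 rest on assembled transcripts alone. Such transcripts also hold 80.4% of the counts of Adcy1 (an adenylyl cyclase), 64.7% of those of Tfpi (the inhibitor of the tissue factor pathway of clotting) and 41.0% of those of Dtx1. Akr1c13, whose log2 fold change was -1.27, has close relatives in the Akr1c cluster with which reads can be shared.

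**Figure D2:**
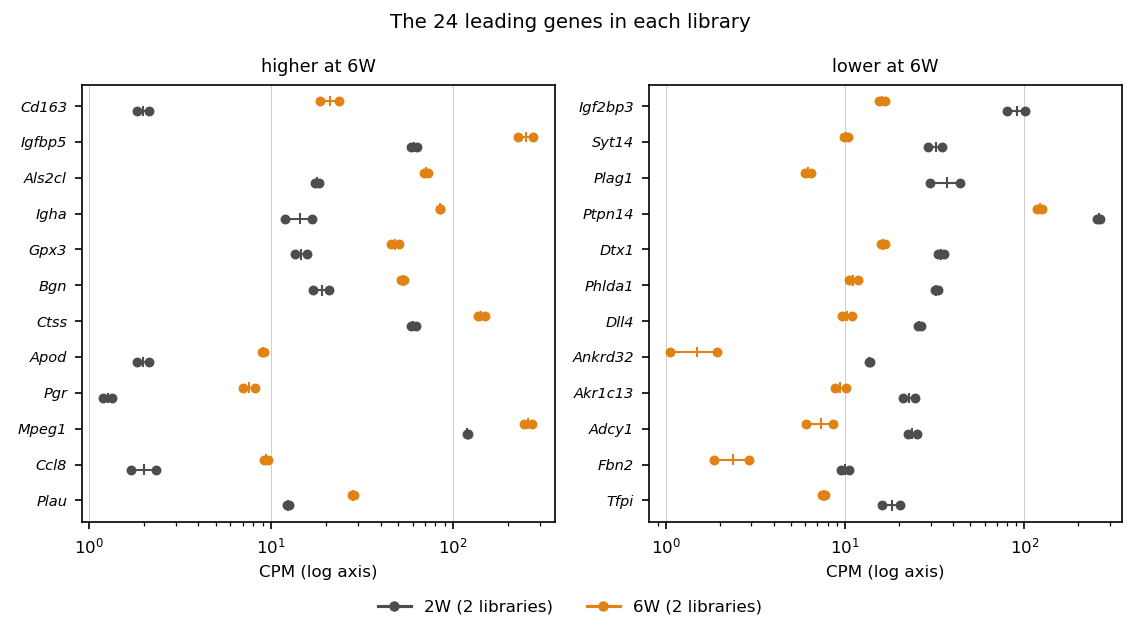
CPM in each library, on a log axis, of the 12 up-regulated (left) and 12 down-regulated genes (right) with the smallest p among the genes that changed more than 2-fold and were also called with exact symbols. Points are libraries (2 at each age), lines join the replicates and ticks mark their mean. The ages do not overlap in any of the 24 genes, which the rule of choice required.

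Among the 257 called genes, ranked by the size of the difference in CPM, the gains were led by C3, H2-D1, H2-K1, Lifr, Selenop and Ctsb and the losses by Notch1, Rbm3, Ano6, Abi3, Bzrap1 and Ptpn14. Selenop, the plasma carrier of selenium, was at 208 and 245 CPM at 2W and 471 and 403 CPM at 6W, and Ctsb, the lysosomal protease cathepsin B, at 297 and 286 CPM at 2W and 501 and 494 CPM at 6W. Each rose by less than 2-fold (0.95 and 0.77 on the log2 scale). Rbm3, an RNA-binding protein induced by cold, fell from 501 and 668 CPM to 301 and 278 CPM, a log2 fold change of -1.01 ± 0.17 (adjusted p = 0.044). Ano6, a phospholipid scramblase, was at 618 and 582 CPM at 2W and 399 and 389 CPM at 6W (log2 fold change -0.61, adjusted p = 0.046). For Lifr, the receptor of leukaemia inhibitory factor, 79.2% of the counts are in assembled transcripts, and annotated transcripts alone gave a log2 fold change of 0.60 in place of 1.03. For Abi3 that share was 85.8%, with -0.23 in place of -0.86, and for Bzrap1 no annotated transcript is in the table.

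Of the genes of antigen presentation, 5 of 11 in MHC class II and 4 of 21 in MHC class I rose, against 1.47% of all genes. These counts were 8 and 9 with DESeq2, 1 and 1 with exact symbols, and 0 and 0 with annotated transcripts only or with a replicate block. MHC class II molecules show peptides from outside the cell to CD4 T cells and are made by thymic epithelium, dendritic cells and B cells. All 11 tested genes of this list had a log2 fold change above 0, with a median of 0.80 (all genes -0.01), and 5 rose. Of the classical chains, H2-Aa was at 280.02 and 264 CPM at 2W and 479 and 469.9 CPM at 6W (log2 fold change 0.80 ± 0.12, adjusted p = 0.037) and H2-Eb1 at 226 and 208 CPM at 2W and 407 and 403 CPM at 6W (log2 fold change 0.90 ± 0.15, adjusted p = 0.047). H2-DMb1 and H2-Ob, chains of the molecules that load peptides and modulate loading, rose by 0.98 and 1.10 on the log2 scale. Ctss, the protease cathepsin S that trims the invariant chain off class II, was at 62.3 and 58.9 CPM at 2W and 149 and 136 CPM at 6W (log2 fold change 1.24 ± 0.11, adjusted p = 0.019). In all 5 genes, and in the 6 others of the list, both 6W libraries were above both 2W libraries, as they were in 28% of all genes. The invariant chain Cd74 itself, at 603 and 431 CPM at 2W and 955 and 997 CPM at 6W, and H2-Ab1, at 236 and 196 CPM at 2W and 366 and 389 CPM at 6W, missed the adjusted threshold (adjusted p = 0.091 and 0.084), as did Ciita, the factor that switches the class II genes on, with 0.34 (adjusted p = 0.17). Per length, the class II chain with the highest level was Cd74, with means in fragments per kilobase and 1000000 fragments (FPKM) of 364 FPKM at 2W and 727 FPKM at 6W, while H2-Aa was at 215 FPKM at 2W and 398 FPKM at 6W.

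MHC class I molecules show peptides from inside the cell to CD8 T cells. Of 21 tested genes of class I and its peptide supply, 20 had a log2 fold change above 0 (median 0.38) and 4 rose. H2-K1 was at 338 and 299 CPM at 2W and 570.5 and 583 CPM at 6W (log2 fold change 0.86 ± 0.11, adjusted p = 0.028), H2-D1 at 337 and 265 CPM at 2W and 577 and 578 CPM at 6W (0.94 ± 0.16, adjusted p = 0.045) and B2m, the light chain that all class I molecules share, at 214 and 164 CPM at 2W and 340.2 and 367 CPM at 6W (0.90 ± 0.15, adjusted p = 0.044). H2-Q6 rose by 0.83 on the log2 scale. The class I heavy chains are near-identical copies, so that reads can be shared among H2-K1, H2-D1 and H2-Q6, and B2m is free of this limit. Not every class I gene moved up: H2-T10, outside the list and chosen after its values were seen, fell from 34.0 and 37.8 CPM to 18.1 and 21.2 CPM (log2 fold change -0.87, adjusted p = 0.036). The suppliers of peptides had smaller differences that did not pass the test, with log2 fold changes of 0.10 for the transporter subunit Tap1, 0.13 for the immunoproteasome subunit Psmb8 and -0.02 for the trimming enzyme Erap1. Of 44 interferon-stimulated genes, 39 had a log2 fold change above 0 (median 0.28), and Ifi27l2a rose, from 30.3 and 23.4 CPM to 52.6 and 56.7 CPM (log2 fold change 1.03 ± 0.15, adjusted p = 0.036). That is 1 of 44, where 1.47% of all genes rose, and DESeq2 called 7.

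MHC genes are known to be switched on through short elements just before their start, among them the Y box. The promoters of 5 called MHC genes that hold a match are shown, because these genes rose and the matched letters can be read in place. The other 4 called MHC genes, H2-K1, H2-DMb1, H2-Ob and Ctss, hold no Y box in this window and are not shown. The sequences are the 250 bases before the start of the gene in RefSeq, build GRCm38.p6, written 5′ to 3′ on the strand of the gene, which is the minus strand for H2-Aa and the plus strand for the others. They lie at chr17:34287824-34288073, chr17:34305617-34305866, chr17:35262844-35263093, chr17:35424600-35424849 and chr2:122147437-122147686. Capitals mark the Y box, searched as CTGATTGG on both strands, and in B2m the interferon response element, searched on both strands as GAAA, any 2 bases and GAAA again.
H2-Aa: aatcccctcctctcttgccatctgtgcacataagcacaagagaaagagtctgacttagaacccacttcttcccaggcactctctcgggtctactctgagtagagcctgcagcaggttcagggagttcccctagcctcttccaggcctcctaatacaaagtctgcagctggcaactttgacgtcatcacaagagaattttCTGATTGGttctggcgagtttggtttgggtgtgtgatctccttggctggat
H2-Eb1: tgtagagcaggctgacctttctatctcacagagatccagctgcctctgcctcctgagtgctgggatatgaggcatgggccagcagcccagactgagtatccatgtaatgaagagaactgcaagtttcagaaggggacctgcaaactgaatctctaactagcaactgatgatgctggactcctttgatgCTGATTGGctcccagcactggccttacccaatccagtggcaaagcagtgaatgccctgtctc
H2-D1: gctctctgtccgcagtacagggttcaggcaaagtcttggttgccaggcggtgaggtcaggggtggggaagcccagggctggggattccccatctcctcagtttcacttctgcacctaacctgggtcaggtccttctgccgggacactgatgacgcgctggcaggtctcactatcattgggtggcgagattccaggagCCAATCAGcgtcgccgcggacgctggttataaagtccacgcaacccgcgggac
H2-Q6: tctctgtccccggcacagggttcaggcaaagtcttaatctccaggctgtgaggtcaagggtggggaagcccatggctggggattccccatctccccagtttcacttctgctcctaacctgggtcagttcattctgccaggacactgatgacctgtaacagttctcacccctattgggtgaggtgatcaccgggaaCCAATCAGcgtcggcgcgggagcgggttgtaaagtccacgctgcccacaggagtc
B2m: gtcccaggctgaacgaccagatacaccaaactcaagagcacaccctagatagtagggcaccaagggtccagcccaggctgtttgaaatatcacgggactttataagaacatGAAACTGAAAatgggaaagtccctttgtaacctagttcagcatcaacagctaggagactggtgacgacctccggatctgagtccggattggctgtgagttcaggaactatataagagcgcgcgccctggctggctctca
In H2-Aa and H2-Eb1 the Y box is read on the printed strand and begins 51 and 62 bases before the start. In H2-D1 and H2-Q6 it is read on the opposite strand, 53 and 55 bases before the start. Of 8 class II genes with a promoter in the table, out of 12 on the list, 3 hold a Y box (37.5%), as do 6 of 18 class I genes out of 21 (33.3%) and 1198 of all 27025 promoters of that length (4.43%). The interferon response element was found in 3 of the 18 class I promoters (16.7%), in 18 of 31 promoters of interferon-stimulated genes (58.1%) and in 936 of all 27025 (3.46%). A match is a description of the letters and does not show that a factor bound there in these mice.

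Of the 66 lists examined, that of macrophages had the largest number of members past the study threshold. Of 24 tested markers of macrophages and monocytes, 23 had a log2 fold change above 0 (median 0.98, all genes -0.01). At the study threshold 12 were higher, against 4.48% of all genes. At the adjusted threshold 6 rose, against 1.47% of all genes: Cd163, Apoe, Lyz2, Fcgr3, Ly6c2 and Mrc1. Lyz2, the lysozyme of myeloid cells, was at 141 and 131 CPM at 2W and 333 and 311 CPM at 6W (log2 fold change 1.24 ± 0.13, adjusted p = 0.023). Apoe, which carries cholesterol out of lipid-loaded macrophages, was at 111 and 77.7 CPM at 2W and 266 and 260.02 CPM at 6W (log2 fold change 1.48 ± 0.23, adjusted p = 0.04), and its 2W replicates lay further apart than its 6W replicates. Mrc1, the mannose receptor, rose from 42.0 and 38.3 CPM to 74.8 and 66.7 CPM (log2 fold change 0.82, adjusted p = 0.036), and Fcgr3, a receptor of IgG, from 7.71 and 7.66 CPM to 18.5 and 17.6 CPM (1.23, adjusted p = 0.023). Ly6c2 of inflammatory monocytes, which shares sequence with the neighbouring Ly6c1, had a log2 fold change of 1.09. The general macrophage marker Adgre1 (F4/80) was at 22.1 and 28.6 CPM at 2W and 37.998 and 36.8 CPM at 6W and the growth factor receptor Csf1r at 48.1 and 39.9 CPM at 2W and 85.0 and 74.3 CPM at 6W, with adjusted p of 0.14 and 0.056. Spic, Slc40a1 and Hmox1, genes of macrophages that recycle the iron of red blood cells, had log2 fold changes of -0.01, 0.17 and 0.29, none past either threshold. In bulk tissue, more cells of a type cannot be told apart from more RNA per cell, here and in all groups that follow.

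Complement is the cascade of plasma proteins that tags microbes and dead cells, and macrophages and fibroblasts make many of its parts. Of 19 tested genes, 17 had a log2 fold change above 0, with a median of 1.08, and 7 rose, against 1.47% of all genes. C3, the central component, was at 245 and 168 CPM at 2W and 719 and 598 CPM at 6W (log2 fold change 1.67 ± 0.20, adjusted p = 0.026), a mean level per length of 38.02 FPKM at 2W and 127 FPKM at 6W. C4b, which forms with C2 the enzyme that splits C3, was at 9.48 and 9.32 CPM at 2W and 42.1 and 32.7 CPM at 6W (log2 fold change 1.99 ± 0.24, adjusted p = 0.026), and Cfb, a protein of the alternative pathway, at 11.1 and 11.0 CPM at 2W and 31.0 and 27.1 CPM at 6W (1.39 ± 0.15, adjusted p = 0.023). The initiating proteases C1s1 and C1ra rose by 0.96 and 1.15 on the log2 scale, and the receptor C3ar1 by 1.61. Serping1, the inhibitor of C1, rose 3.26-fold, but 75.4% of its counts are in assembled transcripts and annotated ones alone gave a log2 fold change of 0.16. The subunits of C1q, C1qa, C1qb and C1qc, which macrophages make, had log2 fold changes of 1.08, 1.01 and 1.20 and passed the study threshold but not the adjusted one (adjusted p = 0.087, 0.058 and 0.12). Cfi, the protease that inactivates C3b, was at 1.14 and 1.23 CPM at 2W and 0.921 and 0.176 CPM at 6W, where 6W replicate 2 was the lowest library, as it was for Alb.

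Dendritic cell genes shared the direction. Of 17 tested markers, 1 had a log2 fold change below 0, the median was 0.67, and 2 rose, against 1.47% of all genes. Itgax (CD11c) was at 9.80 and 8.77 CPM at 2W and 26.1 and 22.5 CPM at 6W (log2 fold change 1.39 ± 0.20, adjusted p = 0.036), and Cd209a, a lectin of conventional dendritic cells, at 0.443 and 0.736 CPM at 2W and 4.17 and 4.02 CPM at 6W (2.78 ± 0.35, adjusted p = 0.028). Xcr1, Clec9a and Batf3, which mark the dendritic cells that cross-present antigen, passed the study threshold only, with log2 fold changes of 1.11, 1.01 and 1.27. Ccl22 was the member below 0, at 70.1 and 61.3 CPM at 2W and 55.2 and 54.6 CPM at 6W.

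**Figure D3:**
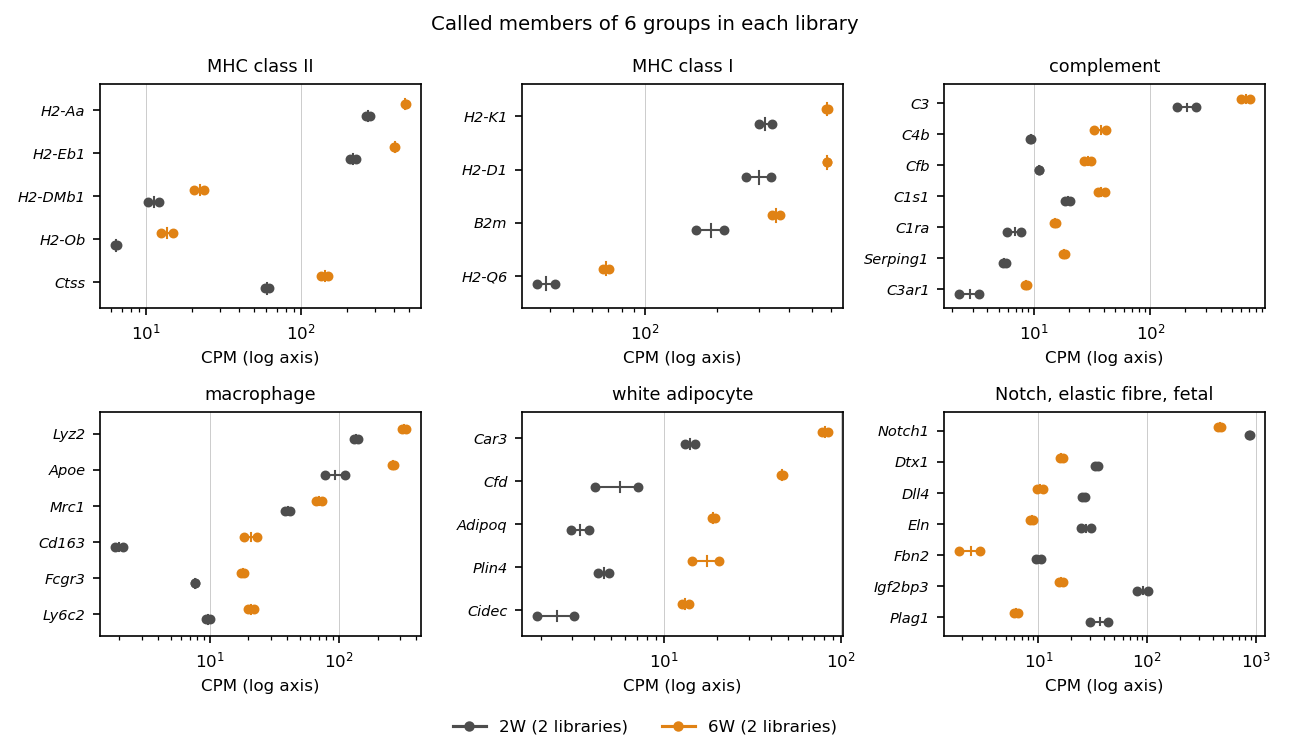
CPM in each library, on log axes, of called genes of 6 groups: MHC class II, MHC class I, complement, macrophages, white adipocytes, and a panel of genes of Notch signalling, elastic fibres and the fetal programme. Points are libraries (2 at each age) and ticks mark the mean of an age. In the first 5 panels both 6W libraries lie above both 2W libraries, and in the last panel both lie below. The ages did not overlap in any of the 257 called genes, so this separation is not particular to these groups.

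Chemokines and their receptors guide the traffic of these cells. Of 41 tested, 36 had a log2 fold change above 0 (median 0.81) and 8 rose, against 1.47% of all genes. Ccl8, a monocyte attractant of tissue macrophages, was at 1.71 and 2.33 CPM at 2W and 9.64 and 9.18 CPM at 6W (log2 fold change 2.22 ± 0.21, adjusted p = 0.023), and Ccl11 (eotaxin) at 1.64 and 3.25 CPM at 2W and 12.6 and 10.6 CPM at 6W (2.24 ± 0.30, adjusted p = 0.031). Ccl5 and Ccl6 rose 2.20-fold and 2.65-fold, and Cxcl16 1.91-fold. Of the receptors, Cx3cr1 of monocytes rose from 2.02 and 2.15 CPM to 7.27 and 6.66 CPM (log2 fold change 1.74, adjusted p = 0.023) and Cxcr6, which binds Cxcl16, from 2.66 and 3.07 CPM to 8.09 and 8.21 CPM (1.51, adjusted p = 0.044). Chemokines that draw progenitors and thymocytes did not pass the adjusted threshold: the cortical Ccl25 was at 353 and 286 CPM at 2W and 355 and 360.3 CPM at 6W and Cxcl12 at 129 and 152 CPM at 2W and 178 and 159.6 CPM at 6W, and the medullary Ccl21a at 92.2 and 50.0 CPM at 2W and 149.7 and 174 CPM at 6W, where the 2W replicates were far apart (adjusted p = 0.51, 0.37 and 0.11). Ccl21a was higher at the study threshold (log2 fold change 1.19). Of 43 genes of interleukins, the TNF family and their receptors, Il10ra, a chain of the interleukin-10 receptor, rose 1.68-fold and none of the others passed the adjusted threshold in edgeR's quasi-likelihood test (13 of the 43 had an unadjusted p under 0.05, and DESeq2 called 5 higher and 1 lower).

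B cells live in the thymic medulla, and plasma cells secrete antibody. Of 13 tested B cell markers, all were above 0 (median 0.69) and Cd22, an inhibitory receptor of B cells, rose from 3.29 and 2.88 CPM to 11.1 and 10.2 CPM (log2 fold change 1.79 ± 0.18, adjusted p = 0.023). Ighm, the heavy chain of IgM, was at 392 and 310.5 CPM at 2W and 569 and 514 CPM at 6W (adjusted p = 0.085). Of 14 tested plasma cell genes, 4 rose, against 1.47% of all genes: Igha, the lambda light chains Iglc1 and Iglc2, and Sdc1 (CD138). Sdc1 was at 9.55 and 10.4 CPM at 2W and 21.7 and 19.2 CPM at 6W (log2 fold change 1.04 ± 0.17, adjusted p = 0.046). Iglc1, at 0.190 and 0.306 CPM at 2W and 3.34 and 5.96 CPM at 6W, and Iglc2, at 1.26 and 1.16 CPM at 2W and 4.85 and 4.94 CPM at 6W, rest on few counts at 2W and are similar in sequence, so that their reads can be shared. Heavy chains of IgG were higher at 6W at the study threshold only, with log2 fold changes of 2.34 for Ighg1, 1.28 for Ighg2b, 1.90 for Ighg2c and 2.78 for Ighg3. The members did not all go together: Mzb1, a chaperone of antibody secretion that is also made by other cells, was at 11.3 and 12.3 CPM at 2W and 4.99 and 5.30 CPM at 6W, lower at 6W at the study threshold only (adjusted p = 0.052), and Xbp1, a transcription factor of secretory cells, was at 126 and 149.8 CPM at 2W and 146 and 142 CPM at 6W. Jchain, which joins secreted IgA, was at 7.71 and 0 CPM at 2W and 13.0 and 0 CPM at 6W, present in replicate 1 of each age and at 0 in replicate 2.

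White adipocytes store fat and release hormones. Of 19 tested markers of white adipocytes, 18 had a log2 fold change above 0 (median 1.12). At the study threshold 9 were higher, against 4.48% of all genes, and 5 rose, against 1.47%. Adipoq, the hormone adiponectin, was at 2.97 and 3.74 CPM at 2W and 19.3 and 18.6 CPM at 6W (log2 fold change 2.50 ± 0.40, adjusted p = 0.041), and Cfd, the fat cell protease adipsin, at 7.14 and 4.05 CPM at 2W and 47.3 and 46.0 CPM at 6W (3.06 ± 0.40, adjusted p = 0.028). Car3, a carbonic anhydrase of fat cells, was at 13.1 and 15.0 CPM at 2W and 84.7 and 78.0 CPM at 6W (log2 fold change 2.54 ± 0.42, adjusted p = 0.044). The coat proteins of the lipid droplet Plin4 and Cidec rose 3.81-fold and 5.28-fold. In all 5 both 6W libraries lay above both 2W libraries, as they did in every gene that rose. Scd1, the desaturase that makes oleic acid, was at 42.1 and 55.7 CPM at 2W and 465 and 470.4 CPM at 6W and missed the adjusted threshold (log2 fold change 3.26, adjusted p = 0.062), with 94.7% of its counts in assembled transcripts. Both 6W libraries lay above both 2W libraries in 17 of the 19 markers, against 28% of all genes. Those that overlapped were Pparg, the regulator of fat cell formation, at 5.50 and 5.76 CPM at 2W and 5.72 and 8.12 CPM at 6W, and the fatty acid transporter Cd36, at 28.4 and 50.7 CPM at 2W and 40.6 and 38.1 CPM at 6W. Brown fat genes had a median of 0.20 over 13 tested, which was -0.16 without 2W replicate 1 and 1.20 without 2W replicate 2, with 0 called by edgeR's quasi-likelihood test, 1 at an unadjusted p under 0.05 and 0 called by DESeq2. Fat of the mediastinum lies against the thymus, and whether it was part of the frozen tissue was not tested.

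Genes of the extracellular matrix moved in both directions. Of 21 tested genes of elastic fibres, 3 rose, against 1.47% of all genes, and 2 fell, against 0.263%. The median of this list was 0.04, and it was below 0 without 6W replicate 1 (-0.07). Elastin itself, Eln, was at 24.7 and 30.2 CPM at 2W and 8.43 and 8.91 CPM at 6W (log2 fold change -1.66 ± 0.25, adjusted p = 0.036), and fibrillin-2 (Fbn2), the fibrillin made mainly before birth, at 10.5 and 9.503 CPM at 2W and 2.91 and 1.85 CPM at 6W (-2.07 ± 0.29, adjusted p = 0.035). The latent TGF beta binding proteins moved the other way: Ltbp1 was at 8.79 and 8.28 CPM at 2W and 20.1 and 20.9 CPM at 6W (log2 fold change 1.26 ± 0.13, adjusted p = 0.023), Ltbp2 rose 2.22-fold and Ltbp4 1.68-fold. Fibrillin-1 (Fbn1), at 80.9 and 86.6 CPM at 2W and 57.4 and 65.7 CPM at 6W, missed the adjusted threshold (adjusted p = 0.12). Of 25 other matrix genes 3 rose, the small proteoglycans Bgn (biglycan) and Fmod (fibromodulin) and the cell adhesion protein Spon1. Bgn was at 20.8 and 17.1 CPM at 2W and 53.8 and 51.9 CPM at 6W (log2 fold change 1.48 ± 0.13, adjusted p = 0.019), and decorin, Dcn, at 32.5 and 39.4 CPM at 2W and 91.3 and 87.1 CPM at 6W (adjusted p = 0.058). Of 19 collagens, 0 were called by edgeR's quasi-likelihood test or by DESeq2 and 8 had an unadjusted p under 0.05. Col1a1 and Col3a1, the fibrillar collagens of fibroblasts, had log2 fold changes of -0.31 and -0.29, and Col6a1 of 0.66. Of 17 fibroblast markers, Pi16 of fibroblasts around vessels rose 2.49-fold and Gsn (gelsolin) 1.79-fold. Of 11 genes of pericytes and smooth muscle, 6 had a log2 fold change above 0 and 5 below (median 0.10, below 0 without 2W replicate 1 or without 6W replicate 1), and Acta2, the actin of smooth muscle, rose from 10.7 and 7.91 CPM to 23.02 and 23.8 CPM (log2 fold change 1.33 ± 0.18, adjusted p = 0.03). Of 8 genes of neural crest, glia and nerve, 4 lay above 0 and 4 below. Scn7a, a sodium channel of glia, rose from 3.10 and 4.78 CPM to 18.1 and 16.0 CPM (log2 fold change 2.11 ± 0.24, adjusted p = 0.023), and the adhesion molecule Ncam1 was lower at the study threshold only, at 18.7 and 16.9 CPM at 2W and 6.88 and 7.72 CPM at 6W (adjusted p = 0.051).

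The insulin-like growth factor (IGF) system drives growth after birth, and its binding proteins hold the hormone in tissue. Besides Igfbp5, Igfbp4 and Igfbp7 rose, by 0.62 and 1.04 on the log2 scale (adjusted p = 0.049 and 0.046). Igf1 was at 22.6 and 25.7 CPM at 2W and 29.4 and 22.6 CPM at 6W, with overlapping ages, and its receptor Igf1r at 161 and 173 CPM at 2W and 122 and 116 CPM at 6W (adjusted p = 0.085). The fetal growth factor Igf2 was at 6.76 and 9.32 CPM at 2W and 2.08 and 2.52 CPM at 6W, lower at 6W at the study threshold (log2 fold change -1.80, adjusted p = 0.051), with 63.5% of its counts in assembled transcripts. Of 21 hormone receptors and related genes, 3 rose, against 1.47% of all genes. These 3 include Pgr, the progesterone receptor, at 1.20 and 1.35 CPM at 2W and 8.14 and 7.02 CPM at 6W (log2 fold change 2.56 ± 0.23, adjusted p = 0.019) and Lepr, the leptin receptor, at 0.885 and 0.736 CPM at 2W and 4.31 and 2.82 CPM at 6W (2.13 ± 0.34, adjusted p = 0.041). The glucocorticoid receptor Nr3c1 was at 329 and 393 CPM at 2W and 417 and 339 CPM at 6W, with overlapping ages. Of 16 known targets of glucocorticoids, 14 had a log2 fold change above 0 (median 0.71) and 0 were called by edgeR's quasi-likelihood test, with 10 at an unadjusted p under 0.05 and 6 called by DESeq2. Tsc22d3, whose product (GILZ) is made in thymocytes under glucocorticoids, was at 72.1 and 74.5 CPM at 2W and 199 and 159 CPM at 6W, past the study threshold, and Fkbp5 at 403 and 375 CPM at 2W and 501 and 407 CPM at 6W (adjusted p = 0.081 and 0.55).

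**Figure D4:**
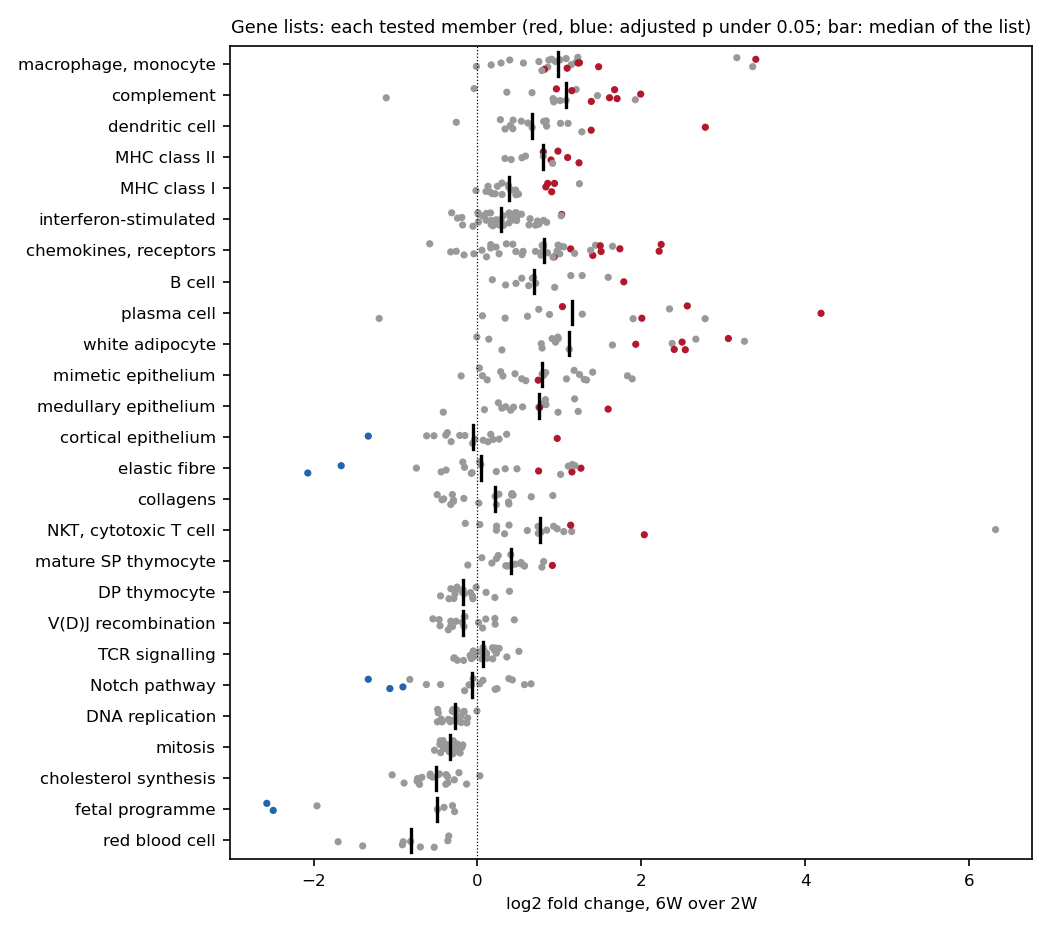
Log2 fold change of 6W over 2W (horizontal axis) of every tested member of 26 gene lists. Each point is a gene, red where it rose and blue where it fell at an adjusted p under 0.05, the black bar is the median of the list and the dotted line the median of all genes. Lists of macrophages, complement, MHC class II, plasma cells and white adipocytes lie to the right, DNA replication, mitosis, cholesterol synthesis and the fetal programme to the left, and DP thymocyte and T cell receptor genes near the middle. The point beyond 6 is Gzmk, listed at 0 in both 2W libraries, whose fitted value is no measure of size.

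Among the genes that fell were members of the fetal programme that let-7 miRNAs are known to switch off as an animal matures. Of 15 genes of this list, 7 were counted well enough to be tested. All 7 were lower in both 6W libraries, as were 29.8% of all genes (median -0.49), and Igf2bp3 and Plag1 fell. Plag1, a zinc finger activator of Igf2, was at 29.7 and 44.0 CPM at 2W and 6.45 and 5.96 CPM at 6W (log2 fold change -2.57 ± 0.23, adjusted p = 0.019), with wider spacing at 2W than at 6W. Igf2bp2 was at 1.90 and 1.59 CPM at 2W and 0.630 and 0.265 CPM at 6W, past the study threshold only (adjusted p = 0.13). Hmga1, a chromatin protein of dividing cells, was at 208 and 158 CPM at 2W and 128 and 147 CPM at 6W and Mycn at 4.24 and 5.27 CPM at 2W and 3.15 and 3.62 CPM at 6W, with adjusted p of 0.31 and 0.34. Among 22 imprinted genes, which control fetal growth, none passed the adjusted threshold in edgeR's quasi-likelihood test (8 at an unadjusted p under 0.05, 4 called by DESeq2). Mest and Zim1, each expressed from the copy of a single parent, were lower at 6W at the study threshold, at 1.58 and 3.37 CPM at 2W and 0.678 and 0.485 CPM at 6W and 0.569 and 1.47 CPM at 2W and 0.291 and 0.221 CPM at 6W, as was Igf2, given above, while Dcn, of the same list, was higher at that threshold.

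The Notch pathway holds progenitors to the T cell fate. Of 18 tested genes of the pathway and the pre-T cell receptor, 3 fell, against 0.263% of all genes. The median of the list was -0.06, or 0.01 with total counts as the only scaling, as its other members lay on both sides of 0. Notch1, the receptor of thymocytes, was at 886 and 865 CPM at 2W and 453 and 479.7 CPM at 6W (log2 fold change -0.91 ± 0.10, adjusted p = 0.023), a level 1.88-fold lower at 6W. Its ligand on the cortical epithelium, Dll4, was at 26.6 and 25.4 CPM at 2W and 9.64 and 11.0 CPM at 6W (-1.33 ± 0.15, adjusted p = 0.023), and its target Dtx1 (deltex) at 32.9 and 35.6 CPM at 2W and 15.8 and 16.8 CPM at 6W (-1.07 ± 0.11, adjusted p = 0.023). Per length, receptor and ligand were far apart, Notch1 at means of 82.8 FPKM at 2W and 46.5 FPKM at 6W and Dll4 at 6.18 FPKM at 2W and 2.60 FPKM at 6W. Notch3, at 145 and 150.1 CPM at 2W and 84.9 and 81.3 CPM at 6W, and the pre-receptor chain Ptcra, at 19.2 and 20.1 CPM at 2W and 11.5 and 14.03 CPM at 6W, did not pass the adjusted threshold (adjusted p = 0.059 and 0.14). The target Hes1 was at 3.54 and 3.13 CPM at 2W and 3.20 and 3.22 CPM at 6W, with overlapping ages. The ligand Jag1 and the modifier Lfng had log2 fold changes of 0.57 and 0.65, not past either threshold. Notch1 and Dtx1 were also the members that fell among the 16 tested markers of DN cells and progenitors, of which 8 had an unadjusted p under 0.05.

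Genes of dividing cells had small differences in 1 direction, none past the adjusted threshold. All 26 tested genes of DNA replication and all 26 of mitosis had a log2 fold change below 0, with medians of -0.27 and -0.34, and both 6W libraries lay below both 2W libraries in 22 and 25 of them, as they did in 29.8% of all genes. Over alternatives the medians were -0.27 to -0.19 and -0.41 to -0.27. No single member was called by edgeR's quasi-likelihood test, with 7 and 11 at an unadjusted p under 0.05, and DESeq2 called 2 of replication and 0 of mitosis. Top2a was at 1569 and 1748 CPM at 2W and 1340.4 and 1269.6 CPM at 6W, Mki67, the proliferation marker Ki-67, at 1530.2 and 1285 CPM at 2W and 1133 and 1242 CPM at 6W and Rrm2, a subunit of ribonucleotide reductase, at 414 and 537 CPM at 2W and 348 and 329.7 CPM at 6W. Replication-dependent histone genes, which a library without selection for poly(A) can hold, had a median of 0.08 over 51 genes, but this median was below 0 without 2W replicate 2 or without 6W replicate 2, and the copies share reads. Of 20 genes of cholesterol synthesis, 19 had a log2 fold change below 0 (median -0.51). Idi1 was at 91.7 and 119.7 CPM at 2W and 48.8 and 53.9 CPM at 6W, past the study threshold only (adjusted p = 0.13). None was called by edgeR's quasi-likelihood test, with 11 at an unadjusted p under 0.05 and 7 called lower by DESeq2.

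The counts for genes of the thymocytes themselves are to be read against the 1.74% called over all genes. None of 17 DP markers was called by edgeR's quasi-likelihood test (5 at an unadjusted p under 0.05, 1 called by DESeq2), and their median was -0.17. Cd4 was at 956 and 923 CPM at 2W and 819 and 847 CPM at 6W and Cd8a at 1609 and 1557 CPM at 2W and 1481 and 1553 CPM at 6W. Of 18 genes of V(D)J recombination and end joining and 31 of the T cell receptor and its signalling, 0 were called by edgeR or DESeq2, with 4 and 1 at an unadjusted p under 0.05 and medians of -0.17 and 0.07, the second below 0 without 2W replicate 2 (-0.03). The beta chain constant region Trbc2 was at 1166 and 1179.5 CPM at 2W and 1111 and 1093 CPM at 6W and the kinase Lck at 1281 and 1179.8 CPM at 2W and 1259 and 1294 CPM at 6W. Of 24 transcription factors of the T lineage and its regulators, Zfp36l2, which binds and destabilises mRNA, rose from 137 and 161 CPM to 309.8 and 358 CPM (log2 fold change 1.17 ± 0.17, adjusted p = 0.036). Of the same 24, 12 had an unadjusted p under 0.05 and DESeq2 called 2 higher and 2 lower, while 2794 of all 14805 genes had an unadjusted p under 0.05. In the 24 genes of the BCL2 family and of thymocyte death, the median was 0.04, 0 were called by edgeR or DESeq2, and 1 had an unadjusted p under 0.05.

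Markers of more mature T cells lay mostly above 0. Of 17 SP genes, 16 had a log2 fold change above 0 (median 0.41), and Gimap3, a GTPase of mature T cells, rose from 29.5 and 25.8 CPM to 51.4 and 52.8 CPM (log2 fold change 0.91 ± 0.12, adjusted p = 0.028). DESeq2 called 8 of the 17 SP genes higher, the fit of 4 libraries 6 and the fit with a replicate block 0. Ccr7, the receptor that brings SP cells to the medulla, was at 40.3 and 32.2 CPM at 2W and 62.2 and 64.8 CPM at 6W and Il7r at 34.4 and 38.5 CPM at 2W and 70.4 and 55.3 CPM at 6W (adjusted p = 0.085 and 0.074). The egress receptor S1pr1 was at 31.1 and 37.3 CPM at 2W and 39.1 and 41.2 CPM at 6W. Of 18 genes of NKT and cytotoxic cells, Klrb1c (NK1.1) rose from 1.07 and 1.04 CPM to 4.75 and 3.97 CPM (2.04 ± 0.34, adjusted p = 0.044), as did Ccl5, given above. Gzma was at 51.8 and 57.2 CPM at 2W and 57.8 and 53.4 CPM at 6W. Foxp3, which defines regulatory T cells, was at 1.71 and 2.57 CPM at 2W and 3.15 and 3.31 CPM at 6W, with 0 of 9 regulatory T cell genes called by edgeR's quasi-likelihood test, 4 at an unadjusted p under 0.05 and 2 called by DESeq2.

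In the cortical epithelium 1 gene rose and 1 fell, and in the medullary epithelium 2 rose, where 1.47% of all genes rose and 0.263% fell. Of 17 genes of the cortical epithelium, Dll4 fell and Enpep, the aminopeptidase known as Ly51, rose from 25.9 and 26.8 CPM to 56.3 and 47.2 CPM (log2 fold change 0.97 ± 0.14, adjusted p = 0.036). The remaining cortical genes did not pass in edgeR's quasi-likelihood test (5 of the 17 had an unadjusted p under 0.05, and DESeq2 called 1 higher and 2 lower), among them the thymus proteasome subunit Psmb11 at 99.8 and 107 CPM at 2W and 83.0 and 82.8 CPM at 6W and the master regulator Foxn1 at 28.1 and 21.6 CPM at 2W and 16.2 and 21.8 CPM at 6W, for which 86.3% of the counts are in assembled transcripts. Of 17 genes of the medullary epithelium, 16 had a log2 fold change above 0 (median 0.75). An unadjusted p under 0.05 was found for 6 of them, and DESeq2 called 5 higher. The 2 that rose were Trp63 (p63), which maintains epithelial progenitors, at 33.3 and 33.1 CPM at 2W and 58.1 and 54.3 CPM at 6W (log2 fold change 0.76 ± 0.11, adjusted p = 0.035), and the protease inhibitor Spink5, at 2.97 and 2.88 CPM at 2W and 8.87 and 8.83 CPM at 6W (1.59 ± 0.19, adjusted p = 0.025). Aire, which lets medullary cells express genes of other tissues, was at 6.70 and 8.40 CPM at 2W and 7.32 and 8.69 CPM at 6W, with overlapping ages. Krt5 was at 86.2 and 61.4 CPM at 2W and 134 and 128 CPM at 6W. Of 21 markers of mimetic epithelium, medullary cells that resemble cells of other organs, Spib, a transcription factor of microfold, dendritic and B cells, rose 1.67-fold (adjusted p = 0.044) and 5 passed the study threshold, among them the tuft cell genes Avil and Trpm5, at 1.90 and 0.981 CPM at 2W and 6.59 and 3.66 CPM at 6W and 1.20 and 0.736 CPM at 2W and 5.09 and 2.12 CPM at 6W.

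Some groups give the state of the tissue when it was taken. Of 18 clock genes, Nr1d1 (REV-ERB alpha) was at 4.74 and 3.92 CPM at 2W and 11.97 and 12.1 CPM at 6W (log2 fold change 1.47 ± 0.16, adjusted p = 0.023) and Dbp at 10.6 and 10.3 CPM at 2W and 18.7 and 22.2 CPM at 6W (0.97 ± 0.15, adjusted p = 0.04), and both rose, while the core clock gene Arntl was at 86.4 and 86.7 CPM at 2W and 77.8 and 86.6 CPM at 6W. The time of day of the dissections is not given in the sources used here, and its part in these differences was not tested. Hspb1, a small heat shock protein, rose from 2.53 and 2.33 CPM to 8.63 and 8.16 CPM (log2 fold change 1.79 ± 0.18, adjusted p = 0.023), whereas the inducible Hspa1a and Hspa1b were higher at the study threshold only. Immediate early genes, which respond to handling, had a median of 0.35 over 20, with Fos at 2.53 and 1.72 CPM at 2W and 2.67 and 3.93 CPM at 6W and Egr1 at 88.7 and 79.1 CPM at 2W and 85.2 and 83.5 CPM at 6W. None of them was called by edgeR's quasi-likelihood test, 5 had an unadjusted p under 0.05 and DESeq2 called 1. Ribosomal protein genes had a median of 0.23 over 44, nuclear genes of the respiratory chain 0.13 over 32, mitochondrial ones 0.01 over 13 (below 0 without 2W replicate 2 and with annotated transcripts alone) and glycolysis -0.08 over 17. In these 4 lists 0 genes were called by edgeR and 1 by DESeq2, a gene of glycolysis, with 2, 0, 0 and 1 genes at an unadjusted p under 0.05.

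Markers of tissue that lies beside the thymus did not share a direction. All 8 tested genes of lymph node stroma and all 8 of the mesothelium that covers the organ had a log2 fold change above 0, with medians of 1.08 and 1.05, and summed levels of 106 and 67.1 CPM at 2W and 180.4 and 199 CPM at 6W and of 23.9 and 23.3 CPM at 2W and 47.1 and 42.3 CPM at 6W. Most of the first sum is Ccl21a, which the medulla makes too. Glycam1, which defines the high vessels of lymph nodes, was at 0.126 and 0.613 CPM at 2W and 3.44 and 1.37 CPM at 6W. None of these genes was called by edgeR's quasi-likelihood test, with 3 and 3 at an unadjusted p under 0.05, and DESeq2 called 1 and 0. Lymph nodes lie beside the thymus and hold B cells, plasma cells and macrophages, and their part in the rise of those genes was not tested. Neutrophil genes, a sign of blood, had a median of 1.38 over 17, with S100a8 at 14.1 and 8.83 CPM at 2W and 34.2 and 26.8 CPM at 6W, and 0 called by edgeR's test, 6 at an unadjusted p under 0.05 and 1 called by DESeq2, while the haemoglobin chain Hbb-bs was at 432 and 349 CPM at 2W and 246 and 197 CPM at 6W. Endothelial genes had a median of 0.07 over 20, which was below 0 without 2W replicate 1, with Pecam1 (CD31) at 178 and 179.8 CPM at 2W and 177 and 169 CPM at 6W. None of them was called by edgeR's quasi-likelihood test, 5 had an unadjusted p under 0.05 and DESeq2 called 2. Of 9 genes of heart muscle and great vessels, 2 were tested, and their median (-1.31) was above 0 without 2W replicate 2 (0.25). Ryr2, a calcium channel of heart muscle, fell from 10.6 and 9.32 CPM to 0.678 and 1.10 CPM (log2 fold change -3.47 ± 0.50, adjusted p = 0.036), with 76.8% of its counts in assembled transcripts, and Tnnt2, the troponin T of heart muscle, was at 0.632 and 0.184 CPM at 2W and 0.678 and 0.794 CPM at 6W (adjusted p = 0.51). Genes of skeletal muscle had a median of 0.03 over 10 and those of exocrine glands of 0.09 over 5, and each median was below 0 under at least 1 alternative.

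Some signalling, regulatory and other cell type groups remain. Of 35 genes of the TGF beta, BMP and Wnt pathways, 31 had a log2 fold change above 0 (median 0.36) and 2 rose, against 1.47% of all genes. These were Acvrl1, a receptor of endothelium for BMP9, at 8.28 and 7.85 CPM at 2W and 16.1 and 16.5 CPM at 6W (log2 fold change 1.02 ± 0.14, adjusted p = 0.035), and Sfrp1, a secreted inhibitor of Wnt, at 30.8 and 30.3 CPM at 2W and 50.6 and 46.6 CPM at 6W (0.67 ± 0.12, adjusted p = 0.049). Bmp4 was at 0.885 and 0.429 CPM at 2W and 2.42 and 1.77 CPM at 6W, past the study threshold only (adjusted p = 0.19). Of 24 genes of DNA methylation and chromatin, 19 had a log2 fold change below 0 (median -0.16), 0 were called by edgeR's quasi-likelihood test, 4 had an unadjusted p under 0.05 and DESeq2 called 1. The maintenance methyltransferase Dnmt1 was at 597 and 489.6 CPM at 2W and 502 and 508 CPM at 6W and the methylcytosine oxidase Tet1 at 109 and 133 CPM at 2W and 96.4 and 85.1 CPM at 6W. Mast cell genes were sparse: 6 of 10 were tested, all higher in both 6W libraries, as were 28% of all genes, with the protease Cma1 at 0.316 and 0.368 CPM at 2W and 2.42 and 1.5004 CPM at 6W. None of the 6 was called by edgeR's quasi-likelihood test, 4 had an unadjusted p under 0.05 and DESeq2 called 1. Of 7 lymphatic endothelial genes all had a log2 fold change above 0 (median 0.80), with 0 called by edgeR's quasi-likelihood test, 3 at an unadjusted p under 0.05 and 2 by DESeq2. Lyve1, the hyaluronan receptor of lymphatic vessels and some macrophages, was at 0.885 and 0.613 CPM at 2W and 4.46 and 2.69 CPM at 6W (adjusted p = 0.1).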

How the data were processed

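Thymus RNA of 3 ages was sequenced by the authors from libraries depleted of ribosomal RNA and made with dUTP strand marking. The authors deposited a table of protein-coding transcripts, annotated and assembled, with estimated counts that need not be whole (84.08% of those above 0 were not) and with FPKM values (fragments per kilobase and 1000000 fragments). Their processing notes list Bowtie 0.12.2 and the build mm8 with no role, and the counting program and its strand setting are not given in the sources used here. Reads of overlapping genes on opposite strands may therefore be mixed.

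Counts of the 77525 transcripts were summed over symbols that differ only in letter case (22843 symbols), leaving out 372 transcripts without a symbol. Assembled transcripts held 12.29% of the counts. Sums were rounded, filtered with filterByExpr and scaled by TMM, and edgeR 4.0.16 (R 4.3.3) fitted all 6 libraries with age as the only factor, so that the 3 ages share the spread. Genes were tested by the quasi-likelihood test with Benjamini-Hochberg adjustment over 14805 genes, at an adjusted p under 0.05. Depth, in counts, was 16519753 and 17021888 in the 2W libraries, 20455949 and 22553481 in the 6W libraries and 16789619 and 21789959 in the 3M libraries. The sources used here do not say whether a replicate is 1 animal or several, so p-values measure only the spread between these libraries, which may be technical in part. On simulated data, 79.9% of 199 genes changed 4-fold were called, and so were 17 unchanged genes. Smaller changes were not simulated. Named are the 12 genes of each direction with the smallest p that changed over 2-fold, did not overlap and were also called with exact symbols, the 6 of each direction with the largest difference in CPM, every called member of a gene list, and, for lists with fewer than 2, the 3 members of highest CPM where printed. Further genes are named as known members of their group, and some list members are not reported here. The compared ages, the lists and all genes named were chosen with earlier results of these data known. Alternatives were the 4 libraries alone, DESeq2 1.42.0, annotated transcripts, exact symbols, no filter, total counts, a replicate block and each library left out. Promoter sequences are from RefSeq.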

Additional observations from a re-analysis of the deposited data

How the results depend on the processing

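The number of genes called at an adjusted p under 0.05 depended on the processing, from 257 as reported to 662 with the 4 libraries alone, 885 with DESeq2, 467 without a filter, 395 with total counts as the only scaling, 124 with exact symbols and 4 with annotated transcripts only (Als2cl, Igf2bp3, Igfbp5 and Igha, with 2129 genes at an unadjusted p under 0.05). The cause of these moves was not tested. DESeq2 shared 256 of the 257 genes, total counts 254 and exact symbols 122. With 1 library left out the count lay between 0 and 2 in edgeR's quasi-likelihood test: 2 genes without 2W replicate 1, 0 without 2W replicate 2 (1698 at an unadjusted p under 0.05), 0 without 6W replicate 1 (1332) and 1 without 6W replicate 2, where the lone library of an age is assumed to vary like the others. The count at the threshold of the study, 793 as reported, lay between 637 and 978 in all alternatives. Total counts moved the median of all genes to 0.06. Of the 257 genes, 256 kept their direction in every alternative, the exception being Ctsh with annotated transcripts only (-0.17 in place of 0.72), where 94.1% of the counts are in assembled transcripts. Counts within lists moved alike. With DESeq2, exact symbols and annotated transcripts only, in this order, the genes that rose were 15, 5 and 0 for macrophages (6 as reported), 12, 4 and 0 for complement (7), 12, 5 and 0 for chemokines (8), 8, 2 and 1 for plasma cells (4) and 11, 2 and 0 for white adipocytes (5). The Notch genes that fell were 4, 3 and 0 (3).

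With a replicate block, 5 genes were called (Als2cl, Cd163, Igf2bp3, Igfbp5 and Igha). The deviations of same-numbered libraries from their age means correlated by -0.058 between 2W and 6W, -0.178 between 2W and 3M and 0.353 between 6W and 3M. As only the last lay above 0, and the labels name no shared animal, litter or day, the numbers were not taken to pair the libraries, although a shared factor between 6W and 3M was not tested.

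With 2 libraries an age and 16519753 to 22553481 counts, genes under about 0.132 to 0.190 CPM cannot be told from absent. The median of 15 gene lists changed sign under at least 1 alternative, and all of them but those of brown fat and of heart muscle lay within 0.1 of 0 as reported.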
